A study of Mus musculus with 4 samples.

Results

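The YAP/TAZ-TEAD genes examined here are 10 genes of the Hippo pathway, taken as a list of gene symbols. Yap1 encodes a coactivator, and Tead1 and Tead2 encode transcription factors. The pathway regulators are Amotl2, Lats2 and Ajuba. The target genes are Ankrd1, Ccn1 (also named Cyr61), Ccn2 (also named Ctgf) and Axl. All 10 genes together are read by 18 probes, out of 43553 probes and 17466 named genes on the array. These are all probes whose RefSeq transcript accession belongs to one of the 10 genes. The cells were fibroblasts grown directly from mouse embryos, which stop dividing after some passages in culture. MEFs (mouse embryonic fibroblasts) of passage 7, at the onset of replicative senescence, were compared with passage 2 MEFs, which were growing, with 2 arrays per passage and no treatment besides serial passaging. According to the labels 3 independent cultures were passaged and the RNA of replicates was pooled for expression analysis. It is thus possible that both arrays of a passage repeat 1 RNA pool, in which case the p-values describe the spread between arrays and not between cultures. The strain and the embryonic age are not given in the sources used here.

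In the Hippo pathway a kinase cascade phosphorylates the coactivators YAP (Yap1) and TAZ (Wwtr1) and keeps them out of the nucleus. When the cascade is off, as in spread cells on a stiff surface, YAP and TAZ enter the nucleus, bind TEAD factors and switch on target genes, many of which act on adhesion, matrix and the cytoskeleton. Some targets, among them Lats2 and Amotl2, restrain YAP in turn and so form a negative feedback. Fibroblasts on culture plastic are a standard setting in which this activity is studied. The arrays read transcripts, and neither phosphorylation nor the location of YAP was measured.

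TEAD factors bind DNA at a short core, GGAATG. The promoter windows of member genes are shown because these letters recur in them, with the core in capitals on either strand (CATTCC is the core on the other strand). The windows run from 250 bases before to 50 bases after the transcription start and were taken from RefSeq, build GRCm38.p6. The array probes were designed on another build and have no coordinates here.
Ankrd1 (chr19:36119795-36120094, minus strand): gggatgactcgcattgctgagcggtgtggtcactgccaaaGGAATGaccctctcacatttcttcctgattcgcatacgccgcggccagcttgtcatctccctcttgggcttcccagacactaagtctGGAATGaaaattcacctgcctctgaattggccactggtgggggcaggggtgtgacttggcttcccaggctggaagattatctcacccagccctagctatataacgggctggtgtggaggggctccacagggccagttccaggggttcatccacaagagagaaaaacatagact
Ccn1 (chr3:145649936-145650235, minus strand): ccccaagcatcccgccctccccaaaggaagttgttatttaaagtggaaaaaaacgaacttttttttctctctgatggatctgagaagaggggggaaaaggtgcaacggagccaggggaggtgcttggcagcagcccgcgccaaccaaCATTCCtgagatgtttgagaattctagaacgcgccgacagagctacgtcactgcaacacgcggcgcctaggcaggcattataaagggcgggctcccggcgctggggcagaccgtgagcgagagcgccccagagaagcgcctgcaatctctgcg
Amotl2 (chr9:102717554-102717853, plus strand): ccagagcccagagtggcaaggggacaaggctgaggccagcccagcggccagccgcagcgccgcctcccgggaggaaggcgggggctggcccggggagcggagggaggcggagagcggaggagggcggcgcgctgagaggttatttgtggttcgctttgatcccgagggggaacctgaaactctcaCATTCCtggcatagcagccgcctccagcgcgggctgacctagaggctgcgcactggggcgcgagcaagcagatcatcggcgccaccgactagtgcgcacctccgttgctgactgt
Ajuba (chr14:54577612-54577911, minus strand): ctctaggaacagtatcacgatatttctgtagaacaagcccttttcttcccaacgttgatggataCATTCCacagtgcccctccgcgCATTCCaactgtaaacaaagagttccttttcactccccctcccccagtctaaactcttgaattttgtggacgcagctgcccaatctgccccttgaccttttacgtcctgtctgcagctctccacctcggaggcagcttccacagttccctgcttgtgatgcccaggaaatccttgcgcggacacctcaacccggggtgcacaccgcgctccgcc
Tead2 (chr7:45215542-45215841, plus strand): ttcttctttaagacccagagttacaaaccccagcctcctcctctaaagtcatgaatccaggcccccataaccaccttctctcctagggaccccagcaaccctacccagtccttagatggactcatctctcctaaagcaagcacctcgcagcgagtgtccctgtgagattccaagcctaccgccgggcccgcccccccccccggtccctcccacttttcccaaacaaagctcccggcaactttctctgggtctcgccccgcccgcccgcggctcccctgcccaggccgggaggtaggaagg
Of the 10 members, 8 had a window in the table, and Lats2 had a pair of them. Ccn2 and Tead1 had no window, so their promoters were not examined for any of these letters. The core was found in 7 of these 9 windows, and 14.7% of all 32851 windows hold it. Ankrd1 carried it 210 and 123 bases before the start on its own strand, and Ajuba 186 and 164 bases before it on the opposite strand. Ccn1 had the core 103 bases and Amotl2 65 bases before the start on the opposite strand, and Yap1 had it 141 bases and Axl 233 bases before the start on their own strand. In Lats2 it began 4 bases after the start of 1 of the windows, and the Tead2 window held none. Of the other genes of the wider target list described below, 2 of 10 with a window held the core, and of the other Hippo regulators and TEAD factors, 10 of 24. No member window held the AP-1 letters TGANTCA or a CArG box, the binding site of serum response factor, which 7.81% and 1.63% of all windows hold. At such shares 9 windows are too few for an absence to say anything about the members. Sequence outside the windows was not examined. A match describes letters and is not a measured binding site, and the members were picked as known pathway and target genes.

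**Figure D1:**
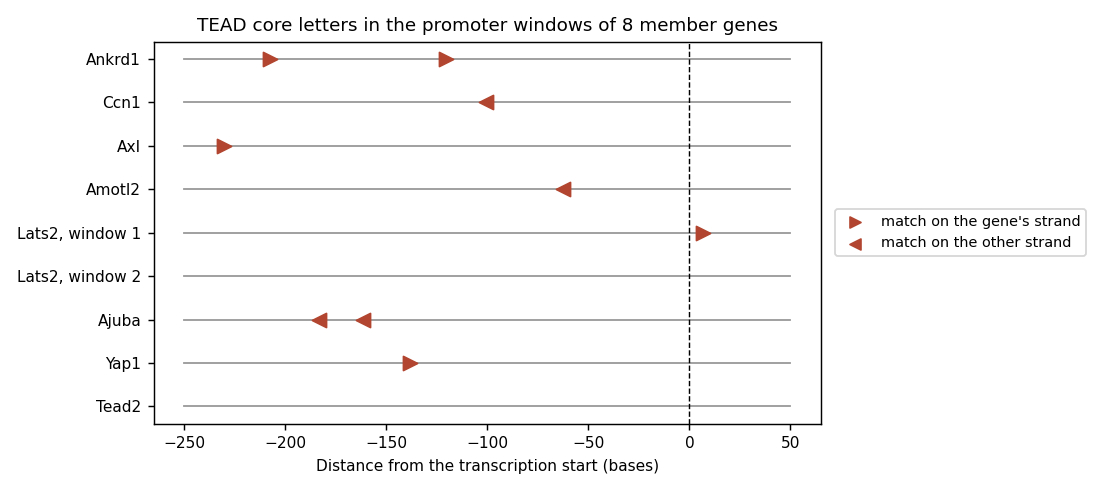
Positions of the TEAD core (GGAATG, either strand) in the promoter windows of 8 member genes, in bases from the transcription start (dashed line). Arrowheads give the strand of each match. The core appears in 7 of 9 windows, with 2 matches each in Ankrd1 and Ajuba.

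Levels are given as the background-subtracted signal divided by the array's 75th percentile of signal, so that 1 is that percentile. Values of different probes are not comparable with each other. A gene was called changed at a Benjamini-Hochberg adjusted p under 0.05 in limma and a change of at least 2-fold. The median change of all 13811 genes tested was 0.20 on the log2 scale, and changes relative to it are stated where it matters. All 10 members were well above background on all 4 arrays and none was saturated. At passage 7 the 75th percentile of the signal was 964 and 402, and at passage 2 it was 1024 and 1404, so the second passage 7 array was the dimmest. The growth arrest of the passage 7 cells was visible in Cdkn2a, which encodes p16Ink4a and p19Arf and rose 12.4-fold, and in the cyclin genes Ccna2 and Ccnb1, whose log2 changes were -3.46 and -3.25. All 9 fibroblast markers on the array were well above background on every array; Lum and Pdgfra fell by 3.00 and 2.54 on the log2 scale (adjusted p = 0.0051 and 0.0076), none rose, and their summed signal was 381 and 531 at passage 7, against 303 and 292 at passage 2. The summed signal of the 6 macrophage markers on the array was 0.767 and 0.955 at passage 7, against 1.79 and 1.72 at passage 2, that of the 7 endothelial markers was 0.753 and 0.740 against 0.511 and 0.499, that of the 8 keratinocyte markers 0.788 and 0.917 against 1.36 and 0.804, and that of the 7 skeletal muscle markers 0.182 and 0.299 against 1.12 and 0.828. A bright probe weighs most in such a sum, and the single markers did not all move one way: the macrophage markers Csf1r and Adgre1, the muscle markers Des and Myh3 and the keratinocyte marker Krt14 fell, while Dsp of the keratinocyte list and Emcn of the endothelial list rose.

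Among the 10 members, 2 rose at passage 7 and none fell. The genes that rose were Ankrd1 and Ccn2, both commonly used as readouts of YAP activity. Among all genes tested 19.5% changed, 10% rising and 9.45% falling, and the members' median change was 0.33 on the log2 scale, or 0.13 above the median of all genes. Of all changed genes 51.5% rose, a share that was 41.2% under median scaling, 42.2% under quantile normalisation and 35.2% from the authors' deposited values. By limma at an unadjusted p under 0.05, 2 members were higher and 1 was lower, while 41.6% of all genes tested passed that limit in either direction. The arrays of both passages did not overlap for 7 of the 10 members, against 68.4% of all genes tested.

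The target genes were led by Ankrd1 and Ccn2. Ankrd1 encodes an ankyrin repeat protein of the nucleus and the sarcomere. It gave a signal of 7.92 and 8.17 at passage 7, against 3.59 and 3.13 at passage 2. Both passage 7 values lay well above both passage 2 values, with a 2.4-fold rise (log2 change 1.26 ± 0.18, SE; limma adjusted p = 0.015). Of all genes tested, 7.61% had a change as high or higher. Ccn2, connective tissue growth factor, is a secreted matricellular protein that acts on adhesion and fibrosis. It gave 94.8 and 112 at passage 7, against 43.4 and 43.8 at passage 2, on its brighter probe, and 34.1 and 34.2 against 13.5 and 14.5 on its other probe. The passages did not overlap at either probe, and the brighter one rose 2.36-fold (1.24 ± 0.19, adjusted p = 0.016 over genes), with 1.29 ± 0.19 at the other (adjusted p = 0.021 over probes). Of the 18 member probes 3 were called, all higher, while of all probes tested 17.3% were called, 8.73% higher and 8.55% lower. Relative to the median of all genes the changes were 1.06 for Ankrd1 and 1.04 for Ccn2. Leaving out either passage 7 array ended both calls, with log2 changes of 1.28 and 1.24 for Ankrd1 (adjusted p = 0.075 and 0.091) and 1.36 and 1.12 for Ccn2 (adjusted p = 0.063 and 0.11). Both were also under 2-fold in the authors' deposited value table (0.96 for Ankrd1 and 0.75 for Ccn2, adjusted p = 0.010 and 0.027), and the change of Ccn2 was 0.60 with quantile normalisation (adjusted p = 0.10). With normexp correction of the median intensity Ankrd1 and Ccn2 were at 0.76 and 0.72 (adjusted p = 0.56 and 0.57). The median of all genes was 0.49 in that setting, so relative to it they were at 0.27 and 0.22.

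Ccn1 is the close relative of Ccn2 and an immediate-early matricellular protein. Its single probe gave 14.5 and 15.4 at passage 7, against 10.6 and 11.3 at passage 2. The passages did not overlap, but the change of 0.45 ± 0.18 did not pass (adjusted p = 0.13; 95% confidence interval -0.02 to 0.91). Within each array the log2 ratio of Ccn2 to Ccn1, which no array scaling moves, differed by 0.79 between passages. The centred ratios were 0.32 and 0.47 at passage 7, against -0.35 and -0.44 at passage 2. With 2 arrays against 2, the exact two-sided permutation test cannot give a p below 0.333, which is what it gave here and for the other 4 pairs of relatives compared (adjusted p = 0.333 over the 5 pairs). Axl, a receptor tyrosine kinase for the ligand Gas6, gave 1.69 and 1.24 at passage 7, against 1.43 and 2.78 at passage 2. These values overlapped, with a change of -0.46 ± 0.39 (adjusted p = 0.42; interval -1.48 to 0.56). Without the second passage 2 array, which held the highest value, the change was 0.021. Axl is also expressed by macrophages, whose marker Csf1r gave 0.483 and 0.705 at passage 7, against 1.43 and 1.36 at passage 2 (limma adjusted p = 0.028). The macrophage markers differed in this: Adgre1 was called lower as well (-2.15), while Itgam and Aif1 were not called (-0.73 and -0.75). Cd14 gave 0.226 and 0.203 at passage 7, against 0.236 and 0.199 at passage 2 (-0.019, limma adjusted p = 0.95). Ankrd1 is also expressed in muscle, whose marker Des fell by 2.65 on the log2 scale. Of the other muscle markers, Myh3 was called lower (-3.56) and Actc1 was not (-2.63). Ckm, Myod1 and Myog were not called either, at -0.031, -0.28 and -0.44. Ptprc, which marks all white blood cells, was not well above background on any array. The part of these cells in either result was not tested, and in such mixed RNA fewer cells of a type and less RNA per cell cannot be told apart.

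**Figure D2:**
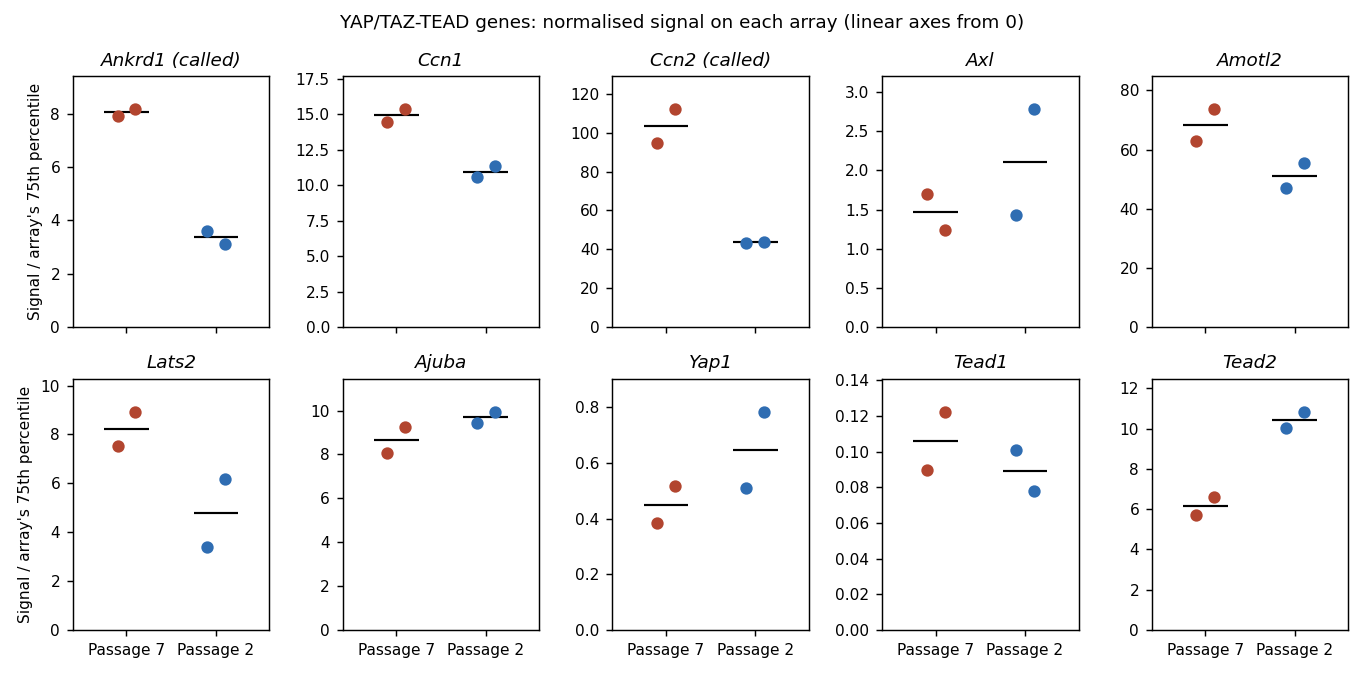
Normalised signal of the 10 member genes on each array (brightest probe of each gene, linear axes from 0, in multiples of the array's 75th percentile). Points are arrays and bars are the mean of 2 arrays. Ankrd1 and Ccn2, marked as called, stand at 7.92 to 8.17 and 94.8 to 112 at passage 7, against 3.13 to 3.59 and 43.4 to 43.8 at passage 2, while Axl, Yap1 and Tead1 overlap between passages.

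None of the regulators Lats2, Amotl2 and Ajuba changed by the criteria. Lats2, a kinase that phosphorylates and inactivates YAP and is itself a YAP target, came closest. Its brighter probe gave 7.52 and 8.92 at passage 7, against 3.39 and 6.18 at passage 2, and its other probe 5.80 and 5.54 against 2.63 and 3.71. Both probes separated the passages, but the passage 2 arrays were far apart. The changes were 0.84 ± 0.34 over genes (adjusted p = 0.14; interval -0.06 to 1.73) and 0.86 ± 0.25 at the other probe (adjusted p = 0.079 over probes). Leaving out the second passage 2 array gave 1.27 (adjusted p = 0.048), which passed, and leaving out the first gave 0.41.

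Amotl2 is an angiomotin-family scaffold of cell junctions that binds YAP and holds it in the cytoplasm. Its brighter probe gave 62.8 and 73.7 at passage 7, against 46.9 and 55.6 at passage 2. The passages were apart on it, and the change of 0.41 ± 0.20 did not pass (adjusted p = 0.20; interval -0.12 to 0.95). The dimmer Amotl2 probe gave 1.92 and 1.84 against 1.53 and 2.72, overlapped, and had the opposite sign (-0.12 ± 0.33, adjusted p = 0.81 over probes). The bright probe itself had the opposite sign with quantile normalisation (-0.18). Ajuba, a LIM-domain adaptor that binds LATS kinases and limits their action on YAP, gave 8.09 and 9.27 at passage 7, against 9.45 and 9.94 at passage 2. The values were apart at this probe and overlapped at the other, which gave 7.45 and 9.23 at passage 7, against 7.59 and 9.11 at passage 2. Its change was -0.16 ± 0.19 (adjusted p = 0.55; interval -0.65 to 0.32), and -0.0045 ± 0.23 at the other probe, so a 2-fold change in either direction lay outside both intervals (-0.62 to 0.61 for the second).

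Neither the TEAD factors Tead2 and Tead1 nor the coactivator Yap1 was called. Tead2 had the lowest adjusted p of the 3 and met the p threshold over genes, but not the fold minimum. Tead2, the TEAD paralogue known for its expression in the mouse embryo, gave 5.72 and 6.58 at passage 7, against 10.0 and 10.8 at passage 2. Its other probes gave 5.95 and 6.62 against 9.33 and 10.3, and 5.89 and 6.88 against 8.94 and 10.3. At each of the 3 probes both passage 7 values lay below both passage 2 values. The change was -0.76 ± 0.19 (1.7-fold lower, limma adjusted p = 0.046; interval -1.26 to -0.27), which met the p threshold, as 25.3% of genes tested did, and not the 2-fold minimum. Relative to the median of all genes it was -0.96. Over probes none of the 3 met the p threshold, with -0.76 at the brightest and -0.64 and -0.59 at the others (adjusted p = 0.066, 0.09 and 0.12). With quantile normalisation Tead2 passed both criteria (-1.06, adjusted p = 0.020), and in the authors' deposited value table it was -0.99 (adjusted p = 0.010). Its adjusted p was above 0.05 without each array in turn (0.06 to 0.26), while the change stayed between -0.87 and -0.66.

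Tead1, the paralogue found in most adult tissues, was dim on these arrays, although well above background on each. Its brightest probe gave 0.0896 and 0.122 at passage 7, against 0.101 and 0.0778 at passage 2. The values overlapped and the change was 0.24 ± 0.26 (adjusted p = 0.52; interval -0.44 to 0.92). The other probes gave 0.66 ± 0.37 and 0.34 ± 0.28 (adjusted p = 0.26 and 0.42 over probes), the first of them without overlap at 0.0363 and 0.0427, against 0.0342 and 0.0181. In the authors' deposited value table the brightest probe was at -0.17. With normexp correction of the median intensity the 3 probes were at 1.22 to 1.82 (adjusted p = 0.55 to 0.56 over probes), where the median of all probes was 0.71. Within each array the log2 ratio of Tead2 to Tead1 was 1.00 lower at passage 7, with centred values of -0.38 and -0.62 at passage 7 against 0.26 and 0.75 at passage 2. Yap1, the coactivator itself, gave 0.385 and 0.515 at passage 7, against 0.508 and 0.783 at passage 2. The values overlapped slightly, with a change of -0.50 ± 0.30 (adjusted p = 0.27; interval -1.29 to 0.29). Its change was negative in each of the 14 alternatives to the processing, between -0.81 and -0.17, with adjusted p-values of 0.077 to 0.91.

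**Figure D3:**
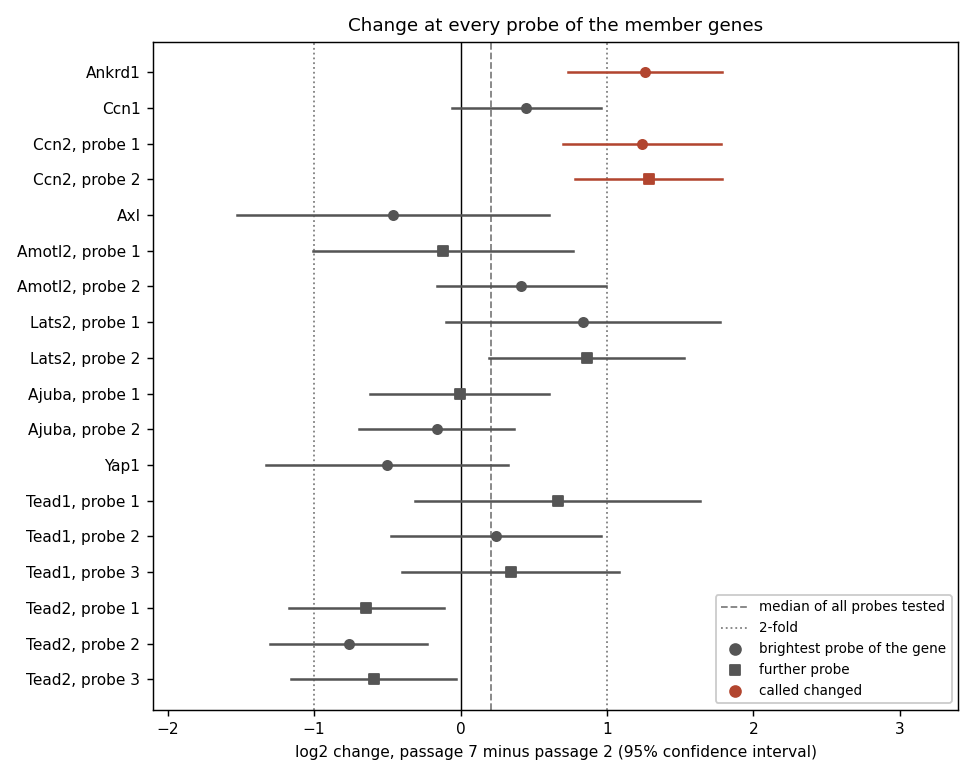
Change at each of the 18 probes of the member genes, passage 7 minus passage 2 on the log2 scale, with 95% confidence intervals from limma over all probes tested. Circles are the brightest probe of a gene, squares further probes, red marks a call, the dashed line is the median of all probes and dotted lines are 2-fold changes. Ankrd1 and both Ccn2 probes lie between 1.24 and 1.29, and all 3 Tead2 probes lie between -0.76 and -0.59.

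Of the 6 members with more than 1 probe, 5 had 1 direction at every probe, Amotl2 being the exception. The spread between probes of a gene was 0.022 for Lats2, 0.045 for Ccn2, 0.16 for Ajuba, 0.17 for Tead2, 0.42 for Tead1 and 0.53 for Amotl2. Probes of 1 gene read the same labelled RNA and are not replicates. Set side by side by role, the 4 target genes had a median change of 0.84, the 3 regulators one of 0.41 and the 3 factors one of -0.50. Less the all-gene value of 0.20, the role medians came to 0.64, 0.21 and -0.70. Single genes ranged from -0.46 to 1.26, -0.16 to 0.84 and -0.76 to 0.24, so the roles overlapped. Lats2 and Amotl2, counted as regulators here, are also YAP targets. With quantile normalisation the regulators' median was negative, with Lats2 at 0.59, Amotl2 at -0.18 and Ajuba at -0.48. A difference between roles was not tested.

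The rest of the pathway was examined in a list of 35 Hippo regulators and TEAD factors, which includes 6 of the members. Of 30 tested, 2 rose and none fell, while 10% of all genes tested rose and 9.45% fell. The median of the list was 0.085, or -0.12 relative to all genes. At an unadjusted p under 0.05 in limma, 6 were higher and 2 lower, against the 41.6% of all genes given above. The genes that rose act upstream of the kinases. Wwc2, a relative of the scaffold KIBRA that activates LATS, gave 34.1 and 40.4 at passage 7, against 18.6 and 12.0 at passage 2 (1.31 ± 0.28, adjusted p = 0.033). Taok3, a kinase of the TAO family, gave 10.8 and 8.93, against 4.39 and 3.04 (1.43 ± 0.26, adjusted p = 0.023). Leaving out either passage 7 array or the second passage 2 array ended both calls (adjusted p = 0.078, 0.14 and 0.065 for Wwc2, and 0.09, 0.062 and 0.057 for Taok3). Both calls were also lost with normexp correction of the median intensity (0.74 for Wwc2 and 1.03 for Taok3, adjusted p = 0.57 and 0.56) and without the filter on dim genes (adjusted p = 0.072 and 0.056). Wwc2 alone of the pair lost it with quantile normalisation (0.81, adjusted p = 0.064), with normexp after local backgrounds marked as uneven were replaced by the array's median (1.14, adjusted p = 0.082) and in the authors' deposited value table (0.89, adjusted p = 0.048, under 2-fold).

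In the kinase core none of 7 genes passed. The MST kinase genes Stk3 and Stk4 had changes of 0.14 ± 0.27 and 0.12 ± 0.29, their partner Sav1 one of -0.40 ± 0.23, and Lats1 one of -0.45 ± 0.20 (adjusted p = 0.72, 0.77, 0.25 and 0.16). The log2 ratio of Lats2 to Lats1 within each array was 1.29 higher at passage 7, with centred values of 0.37 and 0.92, against -1.11 and -0.18. The MOB adaptor gene Mob1a was dim, with 0.0372 and 0.0250 at passage 7, against 0.0516 and 0.145 at passage 2, and its change of -1.50 ± 0.55 did not pass (adjusted p = 0.11). It passed without the first passage 2 array (-2.25, adjusted p = 0.031) and with median scaling (adjusted p = 0.012). Mob1b had a change of -0.031 ± 0.34 (adjusted p = 0.95). Nf2, the upstream activator merlin, gave 13.4 and 15.7 at passage 7, against 9.69 and 9.00 at passage 2, without overlap, and did not pass (0.64 ± 0.19, adjusted p = 0.072).

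The remaining factors and cofactors showed no call. Wwtr1, which encodes TAZ, gave 9.87 and 10.8 at passage 7, against 6.99 and 9.78 at passage 2 (0.32 ± 0.24, adjusted p = 0.36). The log2 ratio of Wwtr1 to Yap1 was 0.83 higher at passage 7. It did not overlap between passages, but neither did the ratio of any of the 5 pairs compared. Each pair had p = 0.333, the lowest that the exact permutation test can give. For the remaining pair, Amotl2 to Amotl1, the log2 ratio was 0.34 lower at passage 7. Tead3 and Tead4 had changes of 0.05 ± 0.19 and -0.0068 ± 0.28 (adjusted p = 0.87 and 0.99). Under the reported processing the interval of each excluded a 2-fold change (-0.45 to 0.54 for Tead3 and -0.75 to 0.73 for Tead4). Tead4 was dim, with 0.0449 and 0.0502 at passage 7, against 0.0600 and 0.0379 at passage 2. With normexp correction of the median intensity Tead4 was at 1.49 (limma adjusted p = 0.56), where the median of all genes was 0.49. Vgll4, a cofactor that competes with YAP for TEAD, had a change of -0.34 ± 0.38 (adjusted p = 0.54). Vgll1 and Vgll2 were not well above background on any array, and Vgll3, Dchs1 and Taok2 were not matched to a probe and were not analysed here.

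A wider list of 22 YAP/TAZ target genes, known from human tumours and including 6 of the members, was read in the same way. Of 21 tested, 3 rose and 1 fell, against 10% and 9.45% of all genes tested. The median of the list was 0.45, or 0.25 above all genes. Without the members, 1 of 15 rose and 1 fell, and the median was 0.17, or -0.027 relative to all genes. Besides Ankrd1 and Ccn2, Nuak2, a kinase of the AMPK family, rose at a low signal (0.0621 and 0.0539 at passage 7, against 0.0305 and 0.0215 at passage 2; 1.18 ± 0.25, adjusted p = 0.032). Igfbp3, a carrier of insulin-like growth factors, fell by 1.22 ± 0.19 on the log2 scale (adjusted p = 0.017), with 4.30 and 3.58 at passage 7, against 9.08 and 9.26 at passage 2. Leaving out either passage 7 array ended the calls of Nuak2 and Igfbp3 (adjusted p = 0.13 and 0.10 for Nuak2, 0.064 and 0.12 for Igfbp3), as did leaving out the second passage 2 array (0.067 and 0.053). Nuak2 was at 0.52 in the authors' deposited value table (adjusted p = 0.11) and at 0.92 with quantile normalisation (adjusted p = 0.045, under 2-fold), and it lost the call without the filter (adjusted p = 0.071) and with replaced backgrounds (1.00, adjusted p = 0.096). With normexp correction of the median intensity Nuak2 was at 1.98 and Igfbp3 at -1.47 (adjusted p = 0.56 for each). Igfbp3 also lost the call with replaced backgrounds (-1.18, adjusted p = 0.050). With 1 passage 7 array left out, no member of the wider lists or of the 10 genes was called, while 1256 and 1149 of all genes still were, against 2690 with all arrays. Asap1 was not matched to a probe.

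**Figure D4:**
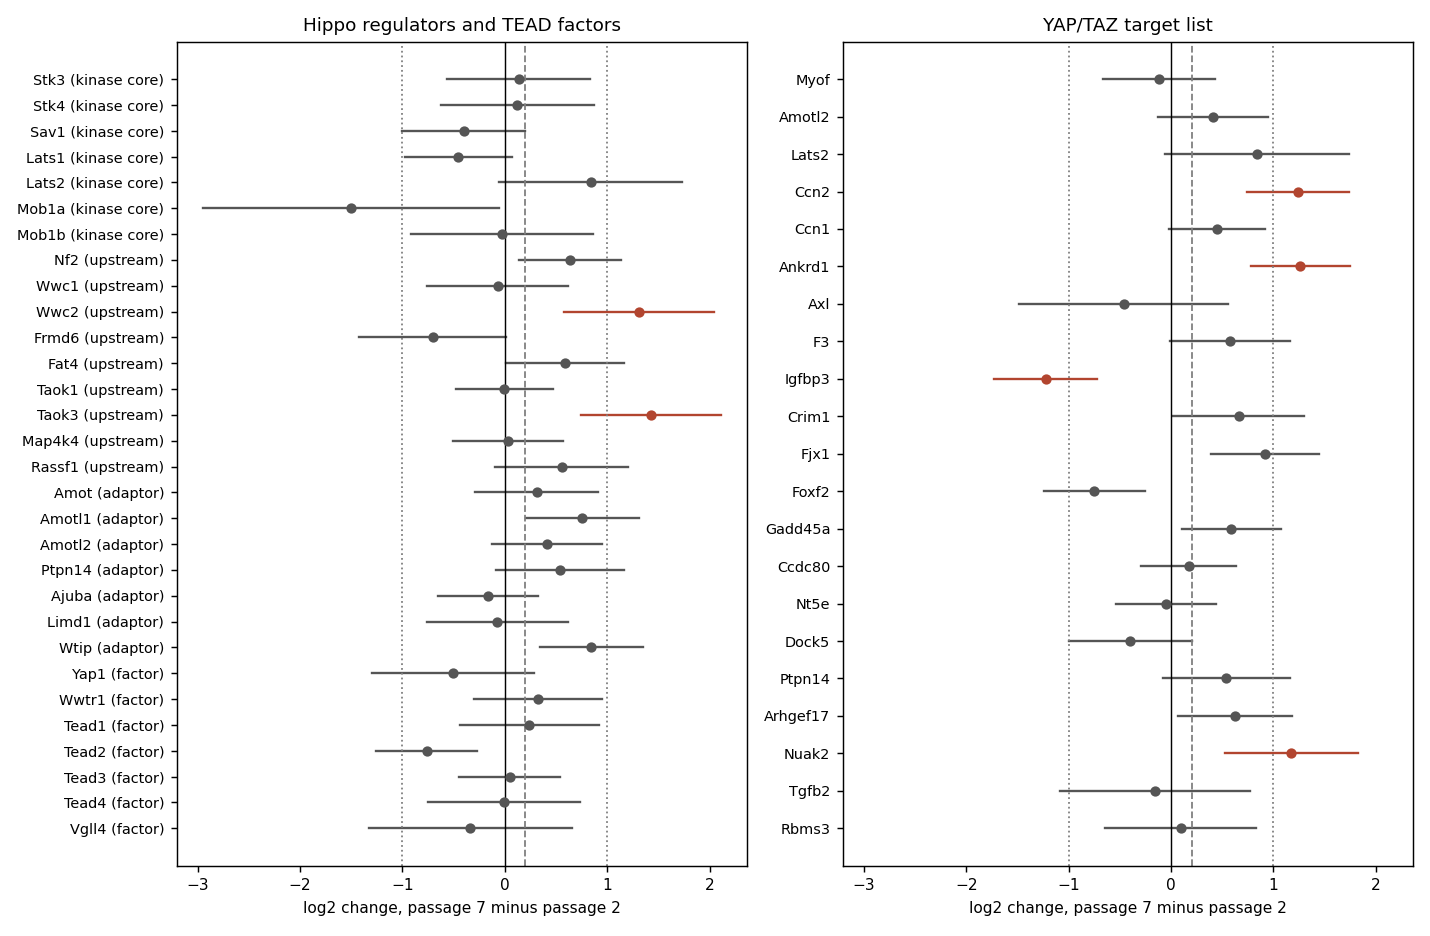
Change of each tested gene of the 2 wider lists, passage 7 minus passage 2 on the log2 scale, with 95% confidence intervals. The dashed line is the median of all genes (0.20), dotted lines are 2-fold changes, and red marks a call. Taok3, Wwc2, Ankrd1, Ccn2 and Nuak2 were called higher and Igfbp3 lower, and most other intervals cross 0.

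Under 14 alternatives to the processing the log2 change of Ankrd1 lay between 0.76 and 1.36, that of Ccn2 between 0.60 and 1.36, and that of Lats2 between 0.41 and 1.27. Tead2 lay between -1.15 and -0.66 and Ajuba between -0.48 and -0.063. Ccn1, Amotl2, Tead1 and Axl had either sign, with -0.045 to 0.50 for Ccn1, -0.18 to 0.54 for Amotl2, -0.17 to 1.22 for Tead1 and -0.94 to 0.021 for Axl.

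**Figure D5:**
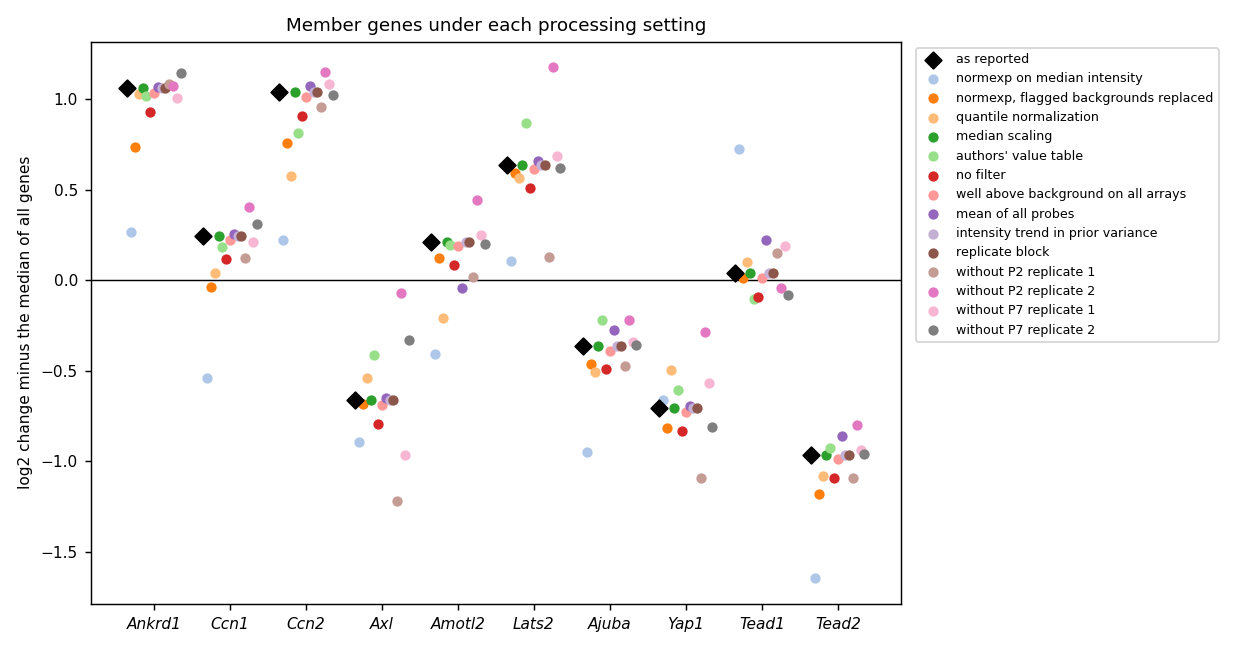
Change of the 10 member genes under the reported processing (black diamonds) and 14 alternatives, each relative to the median of all genes in that alternative (log2 scale). Ankrd1, Ccn2 and Lats2 lie above 0 in each, and Axl, Ajuba, Yap1 and Tead2 below 0 in each. Ccn1, Amotl2 and Tead1 lie on both sides.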

How the data were processed

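Total RNA of passage 7 and passage 2 MEFs was labelled with Cy3 and hybridised to custom Agilent arrays of 1 colour, per the labels' protocols, all on 1 slide and scan, with the passages at different positions, and effects of position and of passage cannot be told apart. Spot intensity values were deposited as Agilent Feature Extraction 10.5.1.1 wrote them, per the file headers, with a background-subtracted processed signal intensity and flags. The authors' deposited value table is on a log2 scale, its normalisation is not stated in any source used here, and its column medians were 6.24 and 6.14 at passage 7 and 6.30 and 6.30 at passage 2. Each column correlated with the log2 median intensity of its own array at 0.9986 or above.

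Log2 processed signals were centred on each array's 75th percentile, outlier spots left out (14 to 61 per array), and spots of a probe averaged. Probes were named by unversioned RefSeq accession (GRCm38.p6 table). Each gene was represented by its brightest probe, and the 13811 genes or 30797 probes that Feature Extraction marked as well above background on both arrays of a passage entered limma 3.58.1, run in R 4.3.3 (no covariate, two-sided, Benjamini-Hochberg over all tested), after a test on simulated data. Between arrays of a passage the robust SD over genes was 0.19 at passage 7 and 0.34 at passage 2 on the log2 scale, and the number of arrays limits the precision. The members and lists were chosen with earlier results of these data known. All members are named, with the kinase core, Nf2, Wwtr1, the Tead and Vgll genes and each called gene of the wider lists. Alternatives covered background correction, normalisation, filter, probe choice, variance model, fold minimum, replicate block and leaving out each array.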

Additional observations from a re-analysis of the deposited data

How the results depend on the processing

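Counts of calls and directions were recomputed under 15 alternatives. They cover the 10 members, the wider target list and the list of Hippo regulators and TEAD factors, called regulators in this section. A gene can stand in more than 1 of these lists. With the planned normexp correction of the median intensity no gene of any list was called by limma (0 of all genes; 665 at an unadjusted p under 0.05), and the members' median change was 0.021. With marked backgrounds replaced in it, 1196 genes were called, 1 regulator rose and 0 targets of the wider list fell. With quantile normalisation 1 member rose (Ankrd1) and 1 fell (Tead2), and the members' median was -0.059. In that setting 1 regulator rose (Taok3) and 1 fell (Tead2 again), and 1 target of the wider list rose (Ankrd1 again). With median scaling 1 regulator fell (Mob1a). From the authors' deposited values, 0 members, 1 regulator and 0 wider targets rose, and the members' median was -0.022. Without a filter 1776 genes were called and 0 regulators rose. Without the fold minimum 1 member and 1 regulator fell (Tead2 in both counts), and 2 wider targets fell. With 1 array left out, the number of genes called ranged from 1149 to 3457, that of members rising from 0 to 3, that of regulators rising from 0 to 2 and falling from 0 to 1, and that of wider targets rising from 0 to 3 and falling from 0 to 1. The all-gene median was 0.023 with quantile normalisation, 0.032 with median scaling, -0.063 in the authors' deposited value table and 0.49 with the planned normexp correction.

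With the replicate number as a block, 1186 genes were called, and 0 members, 0 regulators and 0 wider targets rose and 0 wider targets fell (adjusted p = 0.058 for Ankrd1 and 0.059 for Ccn2). The labels do not say that a number marks a shared culture or day. The deviations of same-numbered arrays correlated at -0.168 across genes. With 2 arrays per passage, this value cannot tell whether same-numbered arrays share more than a number.

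Among named genes that were not called, these log2 changes had the opposite sign. With the planned normexp correction they were -0.045 for Ccn1, -0.26 for Stk3, 0.88 for Mob1a, 1.81 for Mob1b, -0.12 for Wwtr1, 1.49 for Tead4 and 1.00 for Vgll4, and with marked backgrounds replaced 0.63 for Mob1b, 0.47 for Tead4, 0.064 for Vgll4 and 0.057 for the dimmer Amotl2 probe. With quantile normalisation Amotl2 was -0.18 and Stk3 -0.024. With median scaling Stk3 was -0.033, Stk4 -0.046 and Tead3 -0.12. In the authors' deposited value table Tead1 was -0.17 (and -0.0079 at a further probe), Stk3 -0.12, Stk4 -0.028 and Tead3 -0.11. With the mean of all probes Stk4 was -0.20. With 1 array left out, the changes ranged from -0.94 to 0.021 for Axl, -0.16 to 0.43 for Stk3, -0.22 to 0.46 for Stk4, -0.44 to 0.38 for Mob1b, -0.052 to 0.15 for Tead3, -0.34 to 0.32 for Tead4, -0.85 to 0.18 for Vgll4, -0.54 to 0.30 for the dimmer Amotl2 probe and -0.16 to 0.15 for the dimmer Ajuba probe. The cause was not tested for any of these, and the last group also rests on fewer arrays.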
